A study of Homo sapiens with 16 samples.

Results

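A set of 10 genes that encode transcription factors of hepatic stellate cells and other mesenchymal cells was followed, namely BNC2, PRRX1, TCF21, TWIST1, TWIST2, SNAI2, ZEB1, ZEB2, FOXF1 and LHX2. Regions with loss or gain of H3K27ac upon OGT inhibition were taken when they touched the body of one of these 10 genes or lay within 100 kb of its 5′ end. This selected 9 of the 7130 listed regions, 5 of 3507 with loss of H3K27ac and 4 of 3623 with gain. The histone mark H3K27ac (acetylated lysine 27 of histone H3), which is found at active enhancers and promoters, was profiled by ChIP-seq. The cells were LX-2, an immortalised line derived from human stellate cells that serves as a model of myofibroblastic stellate cells (MF-HSCs). Control cells received the vehicle DMSO, and treated cells received OSMI-1, an inhibitor of O-GlcNAc transferase (OGT) hereafter called OGTi, at 50 µM for 24 h. Each arm had 4 biological replicates, all of the same cell line, and the 8 H3K27ac libraries were tested together by the authors. The other 8 of the 16 samples are inputs and CoP-seq libraries of accessible chromatin and were not used here. The lists hold the position and the direction of each region alone, so no magnitude of change and no replicate error is available for any region, and a region that kept its H3K27ac looks the same as one without the mark.

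Hepatic stellate cells are the vitamin A-storing pericytes of the liver, and upon injury they become the myofibroblasts that deposit scar matrix. Their mesenchymal identity depends on transcription factors of several DNA-binding families. BNC2 (basonuclin 2) is a zinc finger protein enriched in myofibroblasts. SNAI2, ZEB1 and ZEB2 are zinc finger repressors that bind E-boxes and silence epithelial genes such as CDH1. TWIST1, TWIST2 and TCF21 are basic helix-loop-helix (bHLH) factors that bind E-boxes as dimers. PRRX1 and LHX2 are homeodomain factors, and FOXF1 is a forkhead factor of the visceral mesenchyme. In the liver, LHX2 is known for restraining stellate cell activation, and TCF21 marks quiescent stellate cells. BNC2, PRRX1, TWIST1, TWIST2, SNAI2 and FOXF1 also belong to the list of myofibroblast identity genes that the study took from its earlier work.

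To show the DNA behind the regions, a 150-base stretch of all 5 lost regions and of 2 of the 4 gained regions is printed below from hg38, counted from 1, 5′ to 3′ on the plus strand. Capitals mark motif matches on either strand. Of all 150-base windows of a region, the one printed held a TEAD match where there was one, then the most different motifs, the most matches and the position nearest the centre. The 2 gained regions were chosen because one holds the only TEAD matches on the gained side and the other a pair of adjoining E-boxes.
BNC2 intron 3, lost, chr9:16626931-16627080, plus strand: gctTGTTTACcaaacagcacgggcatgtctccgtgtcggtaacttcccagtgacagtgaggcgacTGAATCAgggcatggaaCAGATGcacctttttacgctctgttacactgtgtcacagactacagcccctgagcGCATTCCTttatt
BNC2 intron 6, wide lost region, chr9:16425532-16425681, plus strand: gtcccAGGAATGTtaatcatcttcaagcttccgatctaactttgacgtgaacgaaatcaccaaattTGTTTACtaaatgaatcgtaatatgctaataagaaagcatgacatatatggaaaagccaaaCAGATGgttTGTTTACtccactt
BNC2 intron 6, narrow lost region, chr9:16422056-16422205, plus strand: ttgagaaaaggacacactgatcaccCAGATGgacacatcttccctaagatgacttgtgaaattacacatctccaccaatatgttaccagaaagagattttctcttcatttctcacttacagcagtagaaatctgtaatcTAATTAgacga
TWIST2 intron 1, lost, chr2:238863219-238863368, plus strand: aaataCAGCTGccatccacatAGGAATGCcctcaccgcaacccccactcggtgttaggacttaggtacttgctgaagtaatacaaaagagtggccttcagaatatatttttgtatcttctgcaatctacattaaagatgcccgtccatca
downstream of LHX2, lost, chr9:124078020-124078169, plus strand: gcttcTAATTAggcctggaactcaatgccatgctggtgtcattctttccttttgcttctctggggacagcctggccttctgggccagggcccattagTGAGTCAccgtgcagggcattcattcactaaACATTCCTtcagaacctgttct
downstream of TWIST2, gained, chr2:238948432-238948581, plus strand: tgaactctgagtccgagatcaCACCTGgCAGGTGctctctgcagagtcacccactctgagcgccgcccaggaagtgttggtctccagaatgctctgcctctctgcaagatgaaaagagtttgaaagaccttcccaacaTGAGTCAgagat
downstream of FOXF1, gained, chr16:86585981-86586130, plus strand: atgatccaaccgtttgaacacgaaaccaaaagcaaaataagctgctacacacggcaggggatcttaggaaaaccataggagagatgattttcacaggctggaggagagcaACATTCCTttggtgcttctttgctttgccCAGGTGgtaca

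Of the 10 genes, 3 had a lost region, compared with 21.6% of 20033 protein-coding genes, and 3 of 10 had a gained region, compared with 30.5%. BNC2 and LHX2 had lost regions alone, ZEB2 and FOXF1 gained regions alone, and TWIST2 had one of each. PRRX1, TCF21, TWIST1, SNAI2 and ZEB1 had neither. A listed region of either kind was thus found at 5 of the 10 genes, against 44.9% of protein-coding genes, and regions of both kinds at 1 of 10, against 7.21%. These shares are close to the background, so the 10 genes did not stand apart by the number of genes reached. Lost regions made up 55.56% of the 9 regions (Wilson 95% interval 26.67 to 81.12%), compared with 49.2% of all listed regions. The interval covers counting error only and takes the regions as independent, although 4 of the 9 lay in a run of neighbouring regions. The rule itself gave long genes more sequence, since 561.3 kb were searched at BNC2 and 200 kb at the shorter genes. The same shares were therefore taken for long and for short genes, but an effect of gene length was not tested. Among the 826 protein-coding genes longer than 300 kb, as is BNC2, 26.0% had a lost and 30.1% a gained region. Among the 5132 shorter than 10 kb, as are TCF21, SNAI2 and FOXF1, the shares were 21.8% and 29.8%, with 44.3% having either kind.

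**Figure D1:**
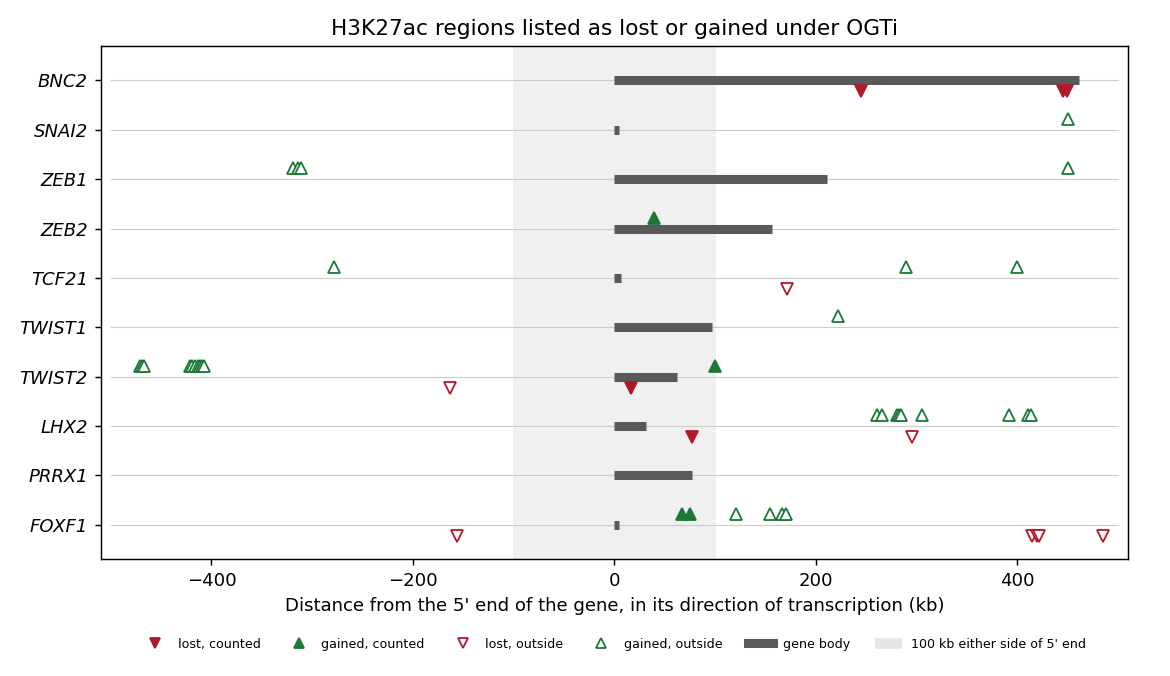
Positions of listed H3K27ac regions around the 10 genes, by distance of the region centre from the 5′ end of the gene in its direction of transcription (kb, linear axis). Filled triangles are the 9 regions counted at the genes, open triangles are other listed regions within 500 kb, downward red is lost, upward green is gained, grey bars are gene bodies and the shaded band spans 100 kb to either side of the 5′ end. All 9 filled triangles lie to the right of 0, and the 3 at BNC2 lie inside its gene body.

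Where the 9 regions lay within the genes was examined next. None of the 10 genes had a listed region within 2500 bp of its own 5′ end. Such a region was found at 8.35% of protein-coding genes, so a count of 0 among 10 is near the background. The ZEB2 region lay 0.677 kb from the start of another ZEB2 transcript, which this count does not include. The region closest to any of the 10 start sites was the lost one in TWIST2, at 14.87 kb. All 9 regions lay downstream of the 5′ end. At genes longer than 100 kb the rule searched farther downstream than upstream, because it took in the whole gene body. Shares over all genes are not given for these positions, so they describe the 9 regions only. Of the 9, 5 were inside the body of the gene, 4 lost and 1 gained, and each of these was intronic with no base in an exon of the canonical transcript. The 4 others lay past the 3′ end of LHX2, TWIST2 or FOXF1. Of the 9 regions, 2 (22.22%, Wilson 95% interval 6.323 to 54.74%) came within 2500 bp of the start of any annotated gene, in comparison with 31.1% of all listed regions, and in neither case was it the start of one of the 10 genes. They were 1 of the 5 lost regions, in BNC2, against 21.4% of all lost regions, and 1 of the 4 gained regions, near FOXF1, against 40.5% of all gained regions.

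BNC2 had the most regions, 3 lost and none gained. At least 3 lost regions without a gained one were found at 2.58% of protein-coding genes, and at 4.12% of those longer than 300 kb. BNC2 lies on the minus strand of chromosome 9 (chr9:16409503-16870843) and is 461.3 kb long. The first lost region, chr9:16625508-16627341, was 1834 bp wide and lay in intron 3 of the 7-exon canonical transcript, 243.5 kb downstream of the 5′ end and 42.42 kb from the nearest start of any BNC2 transcript. It covered the start of an unnamed lncRNA gene on the opposite strand (ENSG00000230694, chr9:16625676-16626390), so it was TSS-proximal for that gene but not for BNC2. The stretch printed for this region holds a forkhead match, an AP-1 match, an E-box and a TEAD match within 150 bases.

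The other BNC2 regions formed a pair in the last intron, separated by 2608 bp. The wider of these, chr9:16424896-16426636 (1741 bp), lay 444.2 kb from the 5′ end, 5246 bp from the nearest exon and 9.094 kb from the start of the closest BNC2 transcript. The narrower, chr9:16421894-16422287, was 394 bp wide and lay 448.6 kb from the 5′ end and 2244 bp from the nearest exon. All 3 regions were therefore far from the annotated 5′ end of BNC2, and the pair was close to the 3′ end of the gene.

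More lost regions were listed at a distance from BNC2. Within 1000 kb of its 5′ end 9 regions were lost and none was gained, and only 7.55% of protein-coding genes had more lost regions within that distance. Of these, 5 lay between 666.24 and 751.75 kb downstream, that is, past the 3′ end of BNC2, and 1 lay upstream in SH3GL2, which encodes the membrane-bending protein endophilin A1. These 9 lost regions were spread over 1513 kb of chromosome 9, with no gained region among them. How often such a series occurs elsewhere was not assessed. The nearest gained region on either side ended at position 13706697 and started at position 18488362. Lost regions were in excess over the whole of chromosome 9, where they made up 60.4% of the listed regions (241 lost and 158 gained), so that the direction at BNC2 was also the more frequent one of its chromosome.

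LHX2, on the same chromosome (chr9:124001670-124033301, plus strand), had 1 lost region of 1968 bp at chr9:124077706-124079673. It lay 76.04 kb downstream of the 5′ end and 44.41 kb past the end of the gene, in intergenic sequence. The nearest start of any gene was 45.18 kb away, and LHX2 was the nearest protein-coding gene by its start. The next gained region began 260.3 kb downstream of the LHX2 start, in NEK6, a mitotic kinase gene. NEK6 held 6 gained regions and 1 lost region, and farther downstream lay 5 lost regions in NR6A1, an orphan nuclear receptor gene. Within 1000 kb LHX2 had 8 lost and 10 gained regions, and 10.0% and 4.2% of protein-coding genes, respectively, had more. LHX2 differed from BNC2 in this respect, because its lost region was followed by gained ones, although both genes are on a chromosome with more loss than gain.

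TWIST2 was the gene with both directions. TWIST2 lies on the plus strand of chromosome 2 (chr2:238848032-238910534), and its lost region, chr2:238862897-238865376, was the widest of the 9, with 2480 bp. It lay in intron 1 of the 2-exon canonical transcript, 14.87 kb from the 5′ end, and 95.4% of protein-coding genes had their nearest lost region farther away than this. The gained region, chr2:238947055-238949374 (2320 bp), lay 36.52 kb past the end of the gene, and 81.68 kb separated it from the lost one. Its near edge was 99.02 kb from the TWIST2 start but its centre was at 100.2 kb, so it was the region closest to the limit of the window. TWIST2 was the nearest protein-coding gene by its start, and LINC01940, a lncRNA gene, was the nearest of all genes, at 20.79 kb.

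More gained regions were found farther upstream of TWIST2. Within 1000 kb of its 5′ end 12 regions were gained and 4 were lost, and only 2.31% of protein-coding genes had more gained regions. Of the 12, 7 were in ASB1, encoding a SOCS box protein, and 3 were in TRAF3IP1, encoding a protein of the cilium, more than 400 kb from TWIST2. Thus the number of gained regions around TWIST2 came mainly from 2 other genes, while the regions nearest to TWIST2 on either side of its start were both lost, the upstream one in LINC01937, a lncRNA gene.

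FOXF1 had 2 gained regions and no lost one. FOXF1 lies on the plus strand of chromosome 16 (chr16:86510527-86515422), in a small cluster with the forkhead genes FOXC2 and FOXL1, and its divergent neighbour FENDRR is a lncRNA of the same mesenchyme. The first gained region, chr16:86576719-86578718 (2000 bp), lay 66.19 kb from the FOXF1 start but only 351 bp from that of FOXL1, inside the FOXL1 gene. The second, chr16:86584871-86586980 (2110 bp), lay 74.34 kb downstream in intergenic sequence, 6.152 kb after the first, and its nearest protein-coding start was that of FOXL1, at 8.503 kb. Both regions were thus closer to FOXL1 than to FOXF1.

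These regions opened a run of 6 gained regions that reached from 66.192 to 171.36 kb downstream of FOXF1 (chr16:86576719-86681885). Of the 6, 4 fell within 100 kb of FOXC2 and 5 within 100 kb of FOXL1, so the same regions are shared by several forkhead genes and are not separate observations. Lost regions flanked the run, the nearest on the upstream side ending 154.6 kb before FOXF1 and 4 on the other side lying between 413.41 and 484.7 kb after it. FOXF1 had 8 lost and 8 gained regions within 1000 kb, and 10.0% and 9.39% of protein-coding genes, respectively, had more. The regions nearest to the forkhead cluster were gained, and the lost ones lay farther away on either side.

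ZEB2 had 1 gained region, the narrowest of the 9. ZEB2 lies on the minus strand of chromosome 2 (chr2:144364364-144521057), and the region, chr2:144481350-144481664, covered 315 bp of intron 2 of the 10-exon canonical transcript, 39.39 kb from the 5′ end. Of the 50 annotated ZEB2 transcripts the closest started 0.677 kb from it. It was also the most isolated, since the next gained region lay 554.8 kb away, in TEX41, and the next lost region 579.1 kb away. Its GC content of 32.7% was the lowest of the 9 and it contained no CpG.

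The paralogous ZEB1, in contrast, had no listed region in 311.3 kb searched. Its nearest gained region ended 310.5 kb upstream, in ZNF438, a zinc finger gene that held 3 gained regions, and its nearest lost region lay 1686 kb downstream. The other E-box repressor, SNAI2, on chromosome 8, had its nearest gained region 450.3 kb downstream and its nearest lost region 1184 kb away. Both genes had 7 gained and no lost regions within 1000 kb, and 13.9% of protein-coding genes had more gained ones. PRRX1, on chromosome 1, was similarly without a lost region in this range, with 2 gained regions starting 775.0 kb downstream and the nearest lost region at 1555 kb. Accordingly, the listed regions within 1000 kb were lost alone for BNC2 and gained alone for SNAI2, ZEB1 and PRRX1. Any lost region in this range was found for 78.5% of protein-coding genes and any gained region for 84.8%. More gained regions than the 2 of PRRX1 were found for 55.3%. The nearest regions of SNAI2, ZEB1 and PRRX1 were far away, and other genes lay in between. None of these regions can therefore be ascribed to these 3 genes from position.

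Of the 3 bHLH genes, TWIST1 and TCF21 had no region. The nearest to TWIST1, on chromosome 7, was a gained region 221.4 kb downstream in HDAC9, the neighbouring histone deacetylase gene, whose introns are known to hold distant TWIST1 enhancers. Within 1000 kb of TWIST1, HDAC9 contained 2 gained regions and 1 lost region, the last 708.5 kb from TWIST1. For TCF21, on chromosome 6, the nearest region was a lost one of 434 bp, 170.9 kb downstream, beyond SLC2A12, which encodes a glucose transporter. Gained regions were found 278.1 kb upstream, in TARID, the lncRNA gene that runs antisense through TCF21, and from 288.59 kb downstream in SGK1, which encodes a serum- and glucocorticoid-induced kinase. Hence the region nearest to the start was lost for TWIST2 and TCF21 but gained for TWIST1.

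**Figure D2:**
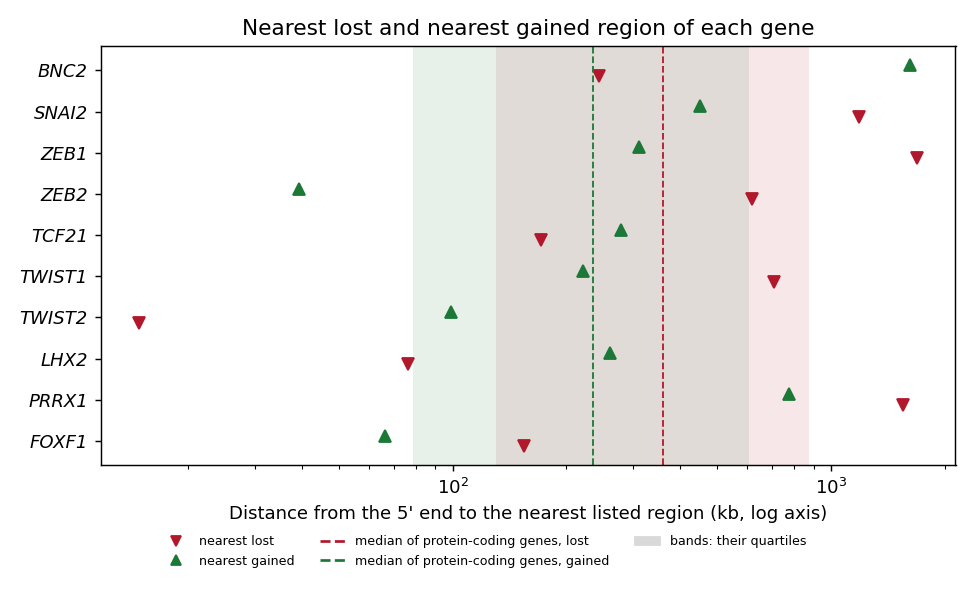
Distance from the 5′ end of each of the 10 genes to its nearest lost region (red, downward) and nearest gained region (green, upward), in kb on a log axis. Dashed lines are the medians over 19970 protein-coding genes (360.1 kb for lost, 235.4 kb for gained) and the bands their quartiles. BNC2, TCF21, TWIST2 and LHX2 are nearer to a lost region and the 6 other genes to a gained one. The median over all genes is also smaller for gained regions.

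The distances can be compared with those of all protein-coding genes with a lost and a gained region on their chromosome. The nearest lost region was at a median of 431.1 kb for the 10 genes (range 14.87 to 1686 kb) and of 360.1 kb for 19970 protein-coding genes (quartiles 130.5 and 873.9 kb). The nearest gained region was at a median of 269.2 kb (range 39.39 to 1618 kb), against 235.4 kb (quartiles 78.62 and 608.8 kb). Both medians were thus within the quartiles of all genes. Of the 10 genes, 4 (BNC2, TCF21, TWIST2 and LHX2) were nearer to a lost region, and the other 6 nearer to a gained one. The share over all genes was not computed for this count. By the medians, gained regions were also nearer than lost ones over all genes, so the count is a description only. Within 1000 kb the 10 genes had 34 lost and 53 gained regions in sum, with medians per gene of 2.0 lost and 5.0 gained, compared with 2.0 and 3.0 over all genes.

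**Figure D3:**
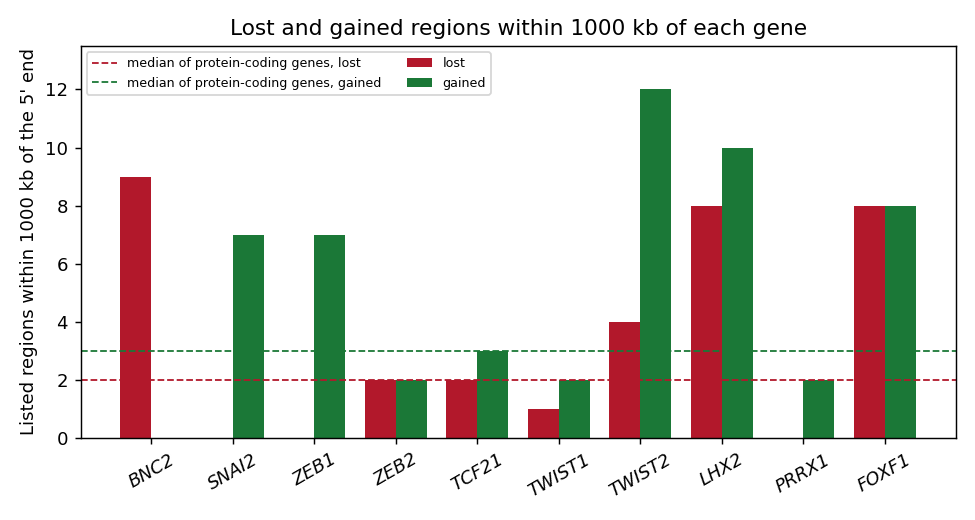
Number of lost (red) and gained (green) regions within 1000 kb of the 5′ end of each of the 10 genes, with the medians over 19970 protein-coding genes as dashed lines (2.0 lost, 3.0 gained). BNC2 has 9 lost and no gained regions, SNAI2 and ZEB1 have 7 gained and no lost regions each, and TWIST2 has the most gained regions, 12.

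The sequence of the regions was then searched, on both strands, for the recognition words of these factor families and of TEAD and AP-1. TEAD factors are the DNA-binding partners of the co-activator YAP1, and AP-1 is formed by FOS and JUN proteins. The TEAD word was CATTCC preceded by A or G and followed by A or T. The AP-1 word was TGANTCA. E-boxes were CAGGTG, the kind bound by ZEB and SNAI proteins, CAGCTG, bound by TCF21-type factors, and CAGATG, bound by TWIST-type factors. The forkhead word was TGTTTAC and the homeodomain word TAATTA, and the CArG box of SRF was included. Motifs could overlap each other. A match describes the letters present and does not show that a factor binds there.

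The TEAD word was found in 4 of the 5 lost regions, with 8 matches, and in 1 of the 4 gained regions, with 2 matches. In all, 42.94% of lost and 27.49% of gained regions of the series contained it. Within the central 1000 bp the word was found in 2 of the 5 lost regions, both in BNC2, and in 1 of the 4 gained regions, against 30.68% of all lost and 16.34% of all gained regions. Per kb of sequence there were 0.9505 matches in the lost regions at these genes against 0.3237 in all lost regions, and 0.2965 against 0.2075 on the gained side. The intronic BNC2 regions carried 5 of the 8 matches, 3 in the region of intron 3 and 2 in the wide region of intron 6. Of all listed regions within 10% of their widths, lost and gained together, 39.41% and 34.71% had at least 1. This pool is not limited to lost regions, which held the word more often than gained ones in the whole series. The LHX2 region had 2 matches and the TWIST2 region 1, for which 40.97% and 48.76% of regions of like width had at least 1. Only the narrow BNC2 region was without a match, and at its width of 394 bp a match was found in 8.824% of regions of like width.

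The stretches printed above show how these words are arranged. In the wide BNC2 region of intron 6, the TEAD match at position 16425537 was followed by 2 forkhead matches at 16425598 and 16425668 with a TWIST-type E-box at 16425659 between them. A second TEAD match lay at 16425807, 45 bp from the centre of the region. In the LHX2 region a homeodomain match, an AP-1 match at 124078117 and a TEAD match at 124078148 occupied one stretch. The TEAD match of the TWIST2 region, at 238863240, was next to a CAGCTG E-box at 238863224 but outside the central 1000 bp of the region. In the gained FOXF1 region the TEAD match at 86586091 preceded a CAGGTG E-box at 86586120. In the stretches printed, AP-1 words stood beside the TEAD match in BNC2 intron 3 and at LHX2, but the stretches were picked for having many different words, so these combinations are a description of the windows shown.

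E-boxes were present in most of the 9 regions, as they were in most regions of the series. The TWIST-type word CAGATG was found in 5 of 5 lost and 2 of 4 gained regions (73.22% and 59.29% of all lost and gained regions), with up to 4 matches in the lost region of TWIST2 itself. CAGGTG was found in 3 of 5 lost and 3 of 4 gained regions (72.17% and 62.9%). CAGCTG was found in 2 of 5 lost and 3 of 4 gained regions (62.33% and 51.95%). The gained region downstream of TWIST2 had the most E-boxes, 3 CAGGTG, 4 CAGCTG and 2 CAGATG, and a pair of CAGGTG words in opposite orientation at 238948453 and 238948460, printed above.

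Words of the other families were searched in the same way. The forkhead word was found in 2 of 5 lost regions, both in BNC2, and in none of the 4 gained regions, including those at FOXF1 (20.3% of all lost and 21.45% of all gained regions). The homeodomain word was found in 2 of 5 lost and 3 of 4 gained regions (34.9% and 33.56%), among them the LHX2 region and, as its only match, the ZEB2 region. AP-1 words were found in 3 of 5 lost and 3 of 4 gained regions (56.54% and 53.6%), and were absent from both intron 6 regions of BNC2. A CArG box was found in the wide intron 6 region of BNC2 and in the FOXL1 region (14.66% of all lost and 7.756% of all gained regions).

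**Figure D4:**
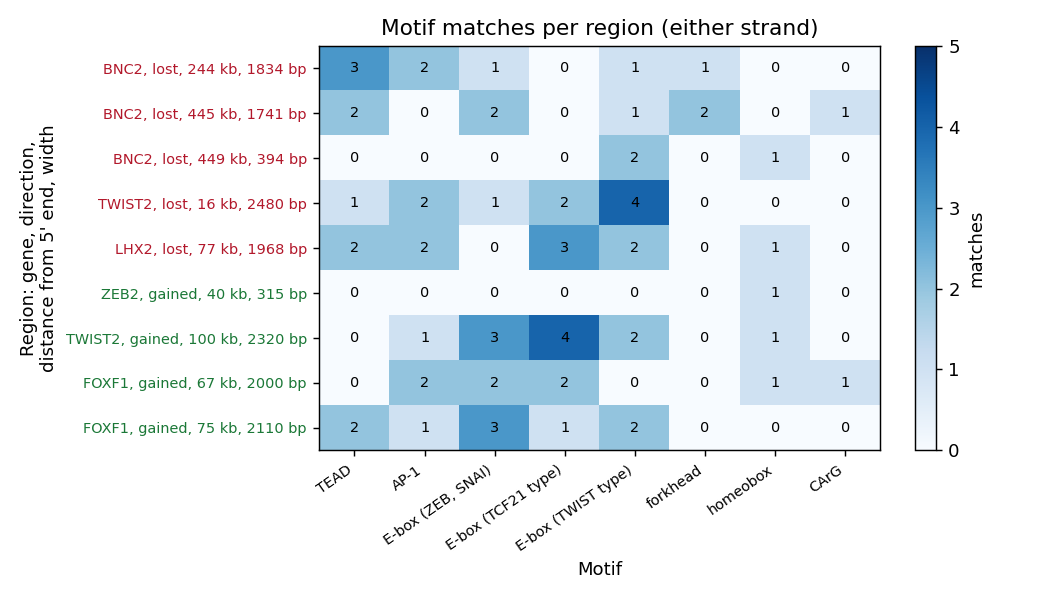
Number of matches of 8 motifs, on either strand, in each of the 9 regions, lost regions in red and gained regions in green, with the gene, the distance of the centre from its 5′ end and the width. The first column shows TEAD matches in 4 of 5 lost and 1 of 4 gained regions, and the forkhead column is filled only for 2 BNC2 regions.

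Width and base composition of the 9 regions were within the range of the lists. The lost regions were 394 to 2480 bp wide (median 1834 bp, against 1905 bp for all lost regions) and the gained regions 315 to 2320 bp (median 2055 bp, against 1697 bp). GC content of the lost regions ranged from 38.25%, in the wide BNC2 region of intron 6, to 53.83%, in TWIST2, with a median of 43.95% against 46.78% for all lost regions. Among gained regions it ranged from 32.7% at ZEB2 to 54.15% at FOXL1 (median 51.31%, against 46.05%). The ratio of observed to expected CpG, which is near 1 in CpG islands, was 0.1556 to 0.3618 in the lost and 0.0 to 0.4575 in the gained regions. The highest value belonged to the region at the FOXL1 start. None of the 9 regions was therefore as rich in CpG as the gained regions above their upper quartile, a ratio of 0.649.

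**Figure D5:**
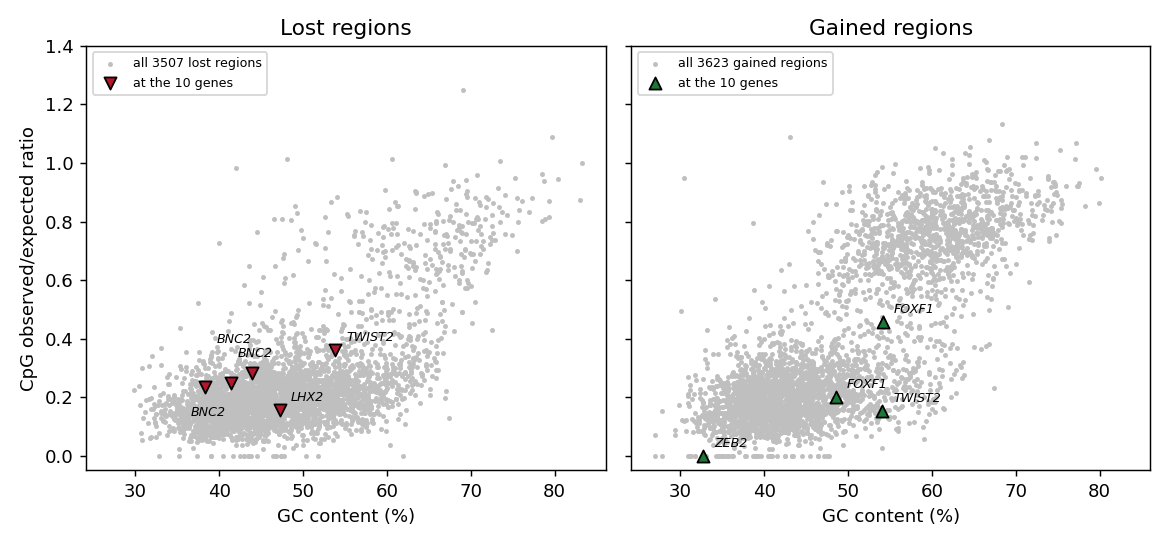
GC content (percent) against the CpG observed/expected ratio for all 3507 lost (left) and 3623 gained regions (right) in grey, with the regions at the 10 genes as coloured triangles. All 9 lie below a ratio of 0.5, outside the CpG-rich cloud in the upper right of the gained panel.

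Genes related to the 10 factors were looked up in the same way. Of 8 paralogues, SNAI1 had lost regions alone, BNC1, TCF23 and SNAI3 had gained regions alone, and PRRX2, MSC, FOXF2 and LHX9 had none. Over all 20033 protein-coding genes, 14.4% had lost regions alone, 23.3% gained regions alone, 7.21% both and 55.1% none, so 4 of 8 paralogues with no region is near the background. BNC1, the epithelial paralogue of BNC2, had 3 gained regions and one of these (chr15:83284039-83286038) covered its 5′ end, whereas BNC2 had 3 lost regions, all in introns. SNAI1 had 4 lost regions, of which chr20:49983020-49983439 began 0.04 kb after its 5′ end, and SNAI2 had none. BNC1 and BNC2, and likewise SNAI1 and SNAI2, thus differed in their listed regions.

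Among 8 further transcription factor genes of the study's myofibroblast identity list, SNAI1 had lost regions alone, FOXC2 and FOXL1 gained regions alone, CREB3L1 both, and HAND2, OSR1, TBX2 and TBX3 none, that is 4 of 8 with none against 55.1% of protein-coding genes. CREB3L1, which encodes a membrane-bound activator of collagen genes, had 4 lost regions, one of them over its 5′ end, and 2 gained regions upstream. The FOXC2 and FOXL1 regions belong to the run next to FOXF1.

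Of 13 genes for partner proteins, 1 had lost regions alone, 3 had gained regions alone, 1 had both and 8 had none, for which the shares over all protein-coding genes were 14.4%, 23.3%, 7.21% and 55.1%. The E proteins TCF3, TCF4 and TCF12, dimer partners of TWIST and TCF21, were among those with none. HAND2, already counted in the identity list, was another. ID3, an inhibitor of bHLH dimers, had 2 lost regions outside its body, of which 1 lay in ASAP3. ID1 had 7 gained regions, 6 of which were in the neighbouring BCL2L1. CTBP1 and CTBP2 encode co-repressors of ZEB factors. CTBP2 had 3 gained regions in its body. CTBP1 had 2 gained regions, 1 of them 0.294 kb from its 5′ end and the other in MAEA, and 1 lost region in SPON2. LDB1, which encodes the cofactor of LIM-homeodomain proteins such as LHX2, had 2 gained regions outside its body, in ARMH3 and PPRC1.

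All 8 genes looked up that are regulated in epithelial-mesenchymal transition had a listed region, against 44.9% of protein-coding genes. These 8 genes were picked with earlier results of these data known, so the contrast describes this list only. The regions were lost alone for 2 and gained alone for 6, compared with 14.4% and 23.3% of protein-coding genes. The 2 with loss were both classical cadherins. CDH2, encoding N-cadherin, had 2 lost regions, of which one covered its 5′ end, and CDH1, encoding E-cadherin, had 2, one in its body and one upstream in CDH3. Gained regions were found for the epithelial genes EPCAM, CRB3, OCLN and CLDN1 and for the mesenchymal genes VIM and FN1. Only those of OCLN and FN1 lay in the body of the gene. The CLDN1 regions were in CLDN16, and the CRB3 region was 66.84 kb from the CRB3 start. The regions of these genes therefore cannot be ascribed to them from position alone. Epithelial and mesenchymal genes thus occurred on both sides. The microRNA genes MIR200A, MIR200B, MIR429, MIR200C, MIR141 and MIR205, whose products repress ZEB1 and ZEB2, had no listed region within 100 kb, as was the case for 55.1% of protein-coding genes. Several of these microRNA genes share a locus, and the nearest region was a gained one 175.2 kb from MIR429.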

How the data were processed

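H3K27ac was profiled by ChIP-seq in 8 libraries of LX-2 cells, 4 control and 4 OGTi. Per the study's methods, the authors aligned reads to hg38 with Chromap, called peaks per library against input with MACS2 (version 2.1.1.20160309 per the submitters' processing notes), removed duplicates and blacklisted regions, and compared the arms with MAnorm2 over bins, which can divide one wide peak into abutting regions. The deposited values are 2 lists of 3 columns, of which the start and end are positions in base pairs of hg38 (unit: other, no score or signal). The names of the authors' lists state an adjusted p of 0.15, and the methods text a stricter one. Read depth per region is unknown, so regions just short of that threshold, or too shallow to reach it, are missing.

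Starts were converted to count from 1. Genes came from GENCODE release 44 (the study used an earlier release), and all 10 symbols matched. A region was at a gene when any base lay in its body or within 100 kb of its 5′ end, TSS-proximal within 2500 bp of any gene's 5′ end, and in a run when centres of one direction lay within 50 kb. Exact words were searched with Python 3.11.15, and Wilson intervals came from scipy 1.17.1. The counting steps were tested on simulated data. The genes, related gene lists and motifs were chosen with earlier results of these data known, so counts are given beside the same over all genes or regions, with no test. Named are the 10 genes, the genes holding or nearest to their regions, and members of the related lists. Other windows, gene starts, joined regions and motif settings were tried as alternatives.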

Additional observations from a re-analysis of the deposited data

How the results depend on the processing

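Of 47 values recomputed under other settings for 10 results, 40 stayed within their interval or within 1.5 times the count, and 7 moved. All 7 were counts that changed with the width of the window or with gene bodies alone. The intervals of the shares rest on 4 to 9 regions and are wide. A share can therefore change much and still be among the 40. With a window of 50 kb, 1 gained region was left, at 1 gene (ZEB2), and the gene bodies alone likewise held 1 gained region, at 1 gene, since the FOXF1 and TWIST2 gained regions lie past these genes. Under both settings the lost share was 80.0% of 5 regions, against 55.56% of 9 in the main setting. It was 50.0% of 16 regions with a window of 200 kb. With a window of 200 kb there were 8 lost and 8 gained regions, and 5 genes with a lost one, TCF21 and FOXF1 being added. The requirement that the centre of a region lie in the window removed the gained region of TWIST2 and left 3. Within the central 1000 bp, 40% of the lost regions kept a TEAD match, against 80% over their whole width. When the starts of all transcripts were used, 33.33% of the 9 regions were TSS-proximal, the ZEB2 region being added, and 11.11% with protein-coding genes alone. No paired analysis was possible because replicate values are not part of the region lists, and for the same reason no replicate could be left out and no stricter threshold applied. Depth is unknown, and with 9 regions the intervals of the shares are wide.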
